A study of Rattus norvegicus with 32 samples.

Results

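The genes described here are those of the cytosolic ribosomal proteins in rat liver sinusoidal endothelial cells (LSECs), the cells that line the liver's smallest vessels. A gene was taken when its symbol was Rpl or Rps with a number and at most 1 of the letters a, x, l or y, when it was Rplp0, Rplp1 or Rplp2, or when it was Rpsa. The rule used names only and no measured value. It found 79 genes among the 32612 in the deposited data, 49 of the large and 30 of the small ribosomal subunit. They came from 90 of 32623 rows, because 9 symbols had several rows, which were summed. Rps13 and Rps26 were not analysed here. Of the 79 genes, 76 passed the low-count filter in all 6 comparisons and 77 in at least 1. The other 2 passed in none: Rpl35a was at 0 counts in every library, and Rpl39l had 0 to 11 counts per library.

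Poly(A) RNA of LSECs was sequenced in 32 libraries. The CCl4 experiment had 22 of them, from male Wistar Han rats: 6 untreated (healthy), 5 after 2 weeks of inhaled carbon tetrachloride (CCl4, a hepatotoxin; acute), 5 after 6 weeks (fibrosis) and 6 with cirrhosis after 12 to 14 weeks. Drinking water contained phenobarbital in the CCl4 model, LSECs were isolated some days after the last dose, and ages were not given in the sources used here. A thioacetamide (TAA, another hepatotoxin) experiment had 10 libraries in 2 groups of 5, which the labels call control and TAA control. Which of the 2 received TAA was not settled, so their comparison carries no disease direction. For that experiment the labels give Wistar Han rats, the study's methods Sprague-Dawley males. Each library was taken as a separate rat, as the labels list them.

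Ribosomal proteins fold with ribosomal RNA into a small subunit, which reads the mRNA, and a large subunit, which joins the amino acids. Cells need most of them in matched amounts, and they are among the most expressed genes of nearly every cell. Their mRNAs typically start with a run of pyrimidines at the very end, the 5′ terminal oligopyrimidine tract (5′ TOP), through which the kinase complex mTORC1 and the protein Larp1 adjust their translation and stability. LSECs are fenestrated scavenger cells, and in chronic liver disease they are known to lose this specialised phenotype.

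The starts of a few genes are shown because the tract was present in genes that went in opposite directions. RefSeq start sites of the rat assembly GRCr8 were used, another assembly than the Rnor_6.0 to which the reads were mapped. Promoters matched 62 of the 79 genes. A tract, here a C at the start site followed by at least 4 C or T in the gene's direction, was found in 23 of these 62 (37.1%) and in 881 of all 33469 promoters (2.63%). Each line gives 10 bases before the start and 20 from it, 5′ to 3′ on the gene's strand, with the tract in capitals.
Rps3a, chr2:173827023-173827052, minus strand: gtacttccgcCCTTTTggctctcagagcgg
Rpl39, chrX:121195877-121195906, minus strand: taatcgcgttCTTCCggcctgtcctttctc
Rps15, chr7:10068096-10068125, minus strand: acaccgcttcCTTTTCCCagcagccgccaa
Rplp0, chr12:46718371-46718400, minus strand: caccgcacttCTCTCgccaggcgtcctcat
Rps27, chr2:177964587-177964616, minus strand: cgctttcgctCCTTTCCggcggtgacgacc
Rps6, chr5:106420521-106420550, minus strand: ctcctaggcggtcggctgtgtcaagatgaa
Rps19, chr1:89608678-89608707, plus strand: cttgtgcgcccgggaaaccccgtcgttccc

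Rps3a and Rpl39, with a tract, had the largest rises after CCl4, while Rps15, Rplp0 and Rps27, also with a tract, were lower at 2 weeks. Rps6 rose and Rps19 fell, and neither window had a tract at the annotated start. Rpl5, whose window is not shown and had no tract either, had the largest difference from healthy LSECs in cirrhosis. In acute against healthy LSECs the median log2 fold change was 0.73 over the 22 tested genes with a tract and 0.80 over the 38 without. Of these, 13 were called higher and 4 lower with a tract, and 23 higher and 1 lower without, by the calling rule given below. Among all genes tested, 35.8% were higher and 38.3% lower. In cirrhosis against healthy LSECs the medians were 0.30 and 0.13. For cirrhosis against fibrosis the medians were -0.56 and -0.71, with 10 of 22 and 24 of 39 lower, against 29.7% of all genes tested. The difference between genes with and without a tract was not tested. A match describes only these letters at one annotated start.

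Ribosomal protein mRNAs took up a larger share of the libraries at 2 and 6 weeks than in healthy LSECs. The share of all counts in the 79 genes was 1.52% to 2.35% in the 6 healthy libraries (median 1.98%), 3.73% to 4.23% in acute and 4.09% to 4.56% in fibrosis. In cirrhosis it was 2.06% to 2.77%, which overlapped the healthy range. The groups labelled control and TAA control in the TAA experiment had 1.71% to 1.91% and 1.29% to 1.56%. These shares do not use normalization factors, and genes were not divided by their length. In bulk RNA, fewer cells of a type and less RNA per cell cannot be told apart.

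**Figure D1:**
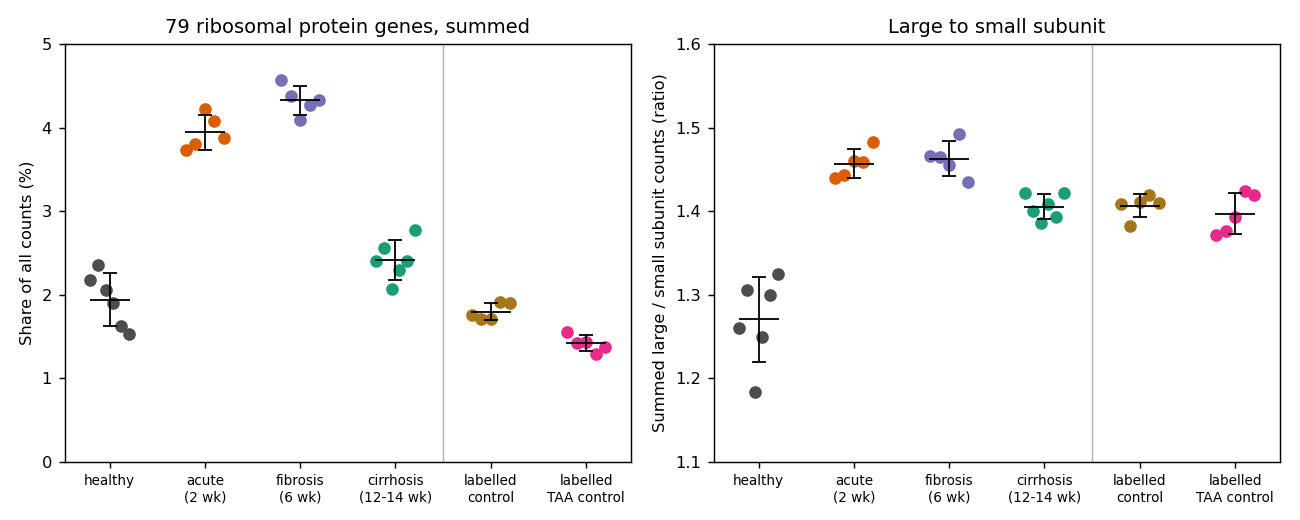
Share of each library's counts in the 79 ribosomal protein genes (left, percent) and ratio of summed large to summed small subunit counts (right, axis not starting at 0), with 1 point per library, a dash at the group mean and bars of 1 SD. Acute and fibrosis libraries lie between 3.73% and 4.56%, above every other library, and the healthy ratios, 1.18 to 1.32, lie below all others.

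The ratio of large to small subunit mRNA counts was lowest in the healthy libraries. It is a ratio of summed counts, not divided by gene length, and does not measure the subunits themselves. The summed large-subunit counts were 1.18 to 1.32 times the summed small-subunit counts in healthy libraries, 1.44 to 1.48 times in acute, 1.43 to 1.49 times in fibrosis and 1.39 to 1.42 times in cirrhosis. The healthy range did not meet that of any CCl4 group. In the TAA experiment the ratio was 1.38 to 1.42 in the group labelled control and 1.37 to 1.42 in the group labelled TAA control.

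The libraries differed in more than these genes. Totals were 25646500 to 46464300 counts. The 13 LSEC markers measured, such as Stab2 and Clec4g, summed to 18461 to 35397 CPM (counts scaled to a common library size with TMM factors) in healthy LSECs, 4117 to 4905 in acute, 2936 to 3998 in fibrosis and 17831 to 22920 in cirrhosis. The 10 hepatocyte markers summed to 1320 to 27949, 146 to 922, 1314 to 5178 and 3025 to 14663 CPM in the same order, and the 11 macrophage markers to 374 to 4060, 84.8 to 249, 37.3 to 234 and 911 to 3233 CPM. The 10 lymphocyte markers measured summed to 15.5 to 215, 0.53 to 2.45, 2.36 to 19.4 and 14.2 to 34.98 CPM. The 6 proliferation markers summed to 11.3 to 23.5, 7.38 to 9.36, 9.42 to 15.9 and 17.5 to 68.97 CPM. For both lists every acute library lay below every healthy one. By the calling rule given below, 4 of the 6 proliferation markers were lower and 1 higher at 2 weeks, and likewise at 6 weeks. In cirrhosis 3 were higher and 0 lower. The 10 stellate cell markers summed to 664 to 1385, 1326 to 2155, 1344 to 1819 and 829 to 2359 CPM. In acute and fibrosis libraries that sum was mostly Reln, at 1306 to 2124 and 1174 to 1571 CPM, against 118 to 216 CPM in healthy ones. By the calling rule given below, 1 of the 10 was higher and 7 lower at 2 weeks (median log2 fold change -2.72). At 6 weeks 4 were higher and 4 lower, and in cirrhosis 7 and 0. Stab2, which defines LSECs, was at 88.7 to 273 CPM in acute and fibrosis libraries and at 1469 CPM or more in all others. Cdh5, a general endothelial marker and also 1 of the 13, was at 775 to 2258 CPM in every library. It was an exception, since 11 of the 13 were called lower at 2 weeks and 12 at 6 weeks, and 0 higher. Kdr, for example, was at 2013 to 5605 CPM in healthy, 134 to 477 in acute and 199 to 347 in fibrosis libraries. The low LSEC marker sums coincide with the libraries of high ribosomal protein share. The part of these markers in the results below was not tested. Libraries 14 and 15 labelled TAA control were unusually alike, though not identical, and were kept as 2.

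A gene was called higher or lower when limma-voom gave an unadjusted p under 0.05 and a fold-change above 1.5, and adjusted p values are Benjamini-Hochberg values over all genes tested. After 2 weeks of CCl4, 44 of 76 ribosomal protein genes tested were higher than in healthy LSECs and 5 were lower. Among all 14310 genes tested, 35.8% were higher and 38.3% lower, against 57.9% and 6.58% of the ribosomal protein genes. With an adjusted p under 0.05 at any fold, 48 were higher (63.2%) and 6 lower (7.89%), against 37.5% and 39.5% of all genes. The median log2 fold change was 0.79, and -0.09 over all genes tested. The ribosomal protein genes were spread less widely than genes in general, with an SD of 0.92 against 2.42.

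After 6 weeks the picture was similar, with 48 of 76 higher than in healthy LSECs and 2 lower. These were 63.2% and 2.63% of the ribosomal protein genes, against 35.8% and 35.4% of the 14530 genes tested. With an adjusted p under 0.05 at any fold, 56 were higher (73.7%) and 2 lower (2.63%), against 37.5% and 36.9% of all genes. The median log2 fold change was 0.92, and -0.03 over all genes. In cirrhosis 19 of 76 were higher than in healthy LSECs and 11 lower, or 25% and 14.5%, against 28.8% and 25.7% of all 14782 genes tested. With an adjusted p under 0.05 at any fold, 32 were higher (42.1%) and 16 lower (21.1%), against 30.1% and 27.7% of all genes, so whether the higher share lay above or below that of all genes depended on the threshold. Without healthy replicate 6 the calls were 20 higher and 20 lower, and with libraries scaled by their totals 35 and 5. The shares of all genes called in these refits are not given here. The median was 0.17, against 0.07 over all genes. The 3 comparisons use the same 6 healthy libraries.

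From fibrosis to cirrhosis the genes came down together. Of 77 tested, 47 were lower in cirrhosis (61.0%) and 2 higher (2.60%), while 29.7% of all 15178 genes tested were lower and 34.5% higher. With an adjusted p under 0.05, 71 (92.2%) were lower and 2 (2.60%) higher, against 38.7% and 39.6% of all genes. The median log2 fold change was -0.72, and 0.04 over all genes.

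Between 2 and 6 weeks the changes were small. No ribosomal protein gene was called higher by limma-voom and 1, Rps19, was lower, against 14.3% and 1.39% of the 13924 genes tested. At an unadjusted p under 0.05 alone, without the fold-change threshold, 55 were higher (72.4%) and 2 lower (2.63%), against 19.9% and 15.8% of all genes. With an adjusted p under 0.05 at any fold, 29 were higher (38.2%) and 1 lower (1.32%), against 12.3% and 8.01% of all genes. The median was 0.20, and 0.00 over all genes.

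**Figure D2:**
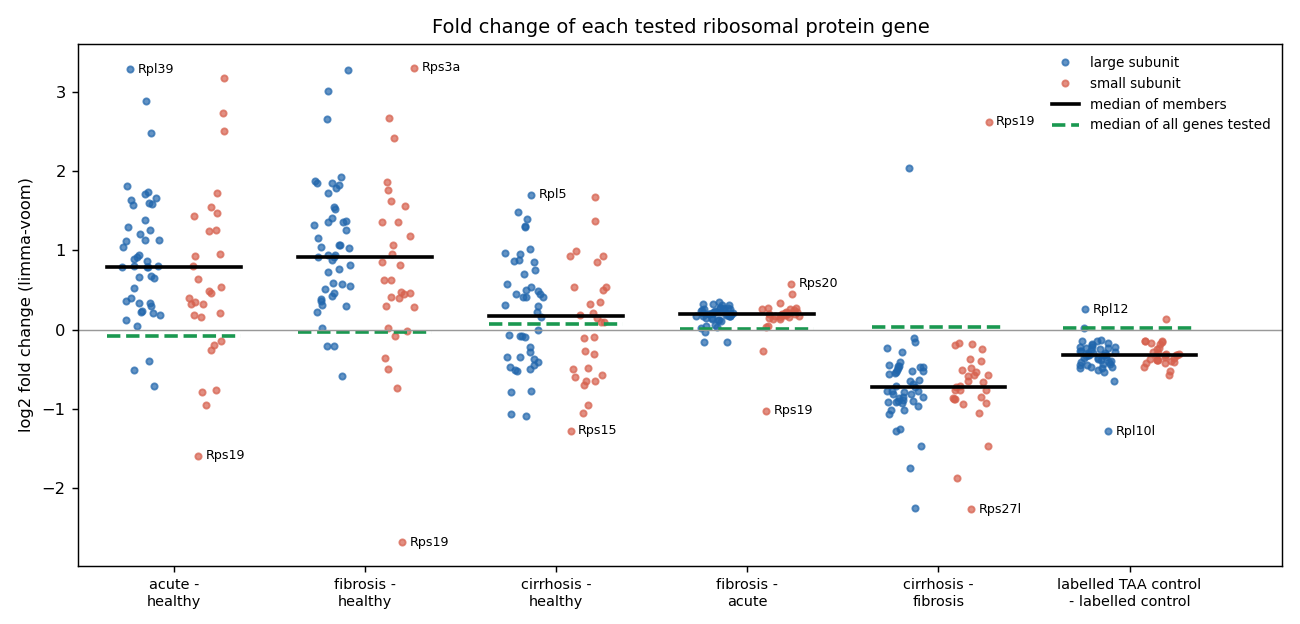
Log2 fold changes (vertical axis, limma-voom) of each ribosomal protein gene tested in the 6 comparisons, with large and small subunit genes in different colours, a solid line at their joint median and a dashed line at the median of all genes tested. Most points lie above 0 at 2 and 6 weeks against healthy LSECs and below 0 in cirrhosis against fibrosis, with medians of 0.79, 0.92 and -0.72.

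More of the large than of the small subunit genes were called higher. At 2 weeks 31 of 46 large subunit genes were higher and 1 lower, with a median of 0.83, while 13 of 30 small subunit genes were higher and 4 lower, with a median of 0.47. At 6 weeks the counts were 32 and 0 with a median of 0.99 for the large subunit, and 16 and 2 with 0.62 for the small. In cirrhosis 13 large subunit genes were higher and 4 lower, and 6 small subunit genes were higher and 7 lower. Among all genes tested, 35.8% were higher and 38.3% lower at 2 weeks, 35.8% and 35.4% at 6 weeks, and 28.8% and 25.7% in cirrhosis. In cirrhosis the share of large subunit genes higher and of small subunit genes lower thus lay near that of all genes. The difference between the subunits was not tested.

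Across the 3 stages, 19 genes were higher than in healthy LSECs at each of them, among them Rps3a, Rps6, Rps4x, Rps7, Rpl4, Rpl5, Rpl7 and Rpl39. Another 24 were higher at 2 and 6 weeks and were not called in cirrhosis, among them Rpl3, Rpl11, Rpl22, Rpl23, Rpl38, Rplp1 and Rps27l. Rps20, Rps18 and Rpl27 were called at 6 weeks and not at 2 weeks or in cirrhosis, and none of them was called between 2 and 6 weeks. Rpl8 was higher at 2 and 6 weeks and lower in cirrhosis. Rps15 was lower at all 3 stages, Rps19 at 2 and 6 weeks, and Rps14, Rps27 and Rplp0 at 2 weeks and in cirrhosis. Rps2, Rps3, Rps10, Rpsa, Rpl18 and Rpl36 were called at cirrhosis and not earlier, and were lower there, and 17 genes were called at no stage. How many of all genes had each pattern was not counted, so these counts do not show a trait of ribosomal protein genes. The 3 stages are compared with the same healthy libraries, so their calls are not independent.

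**Figure D3:**
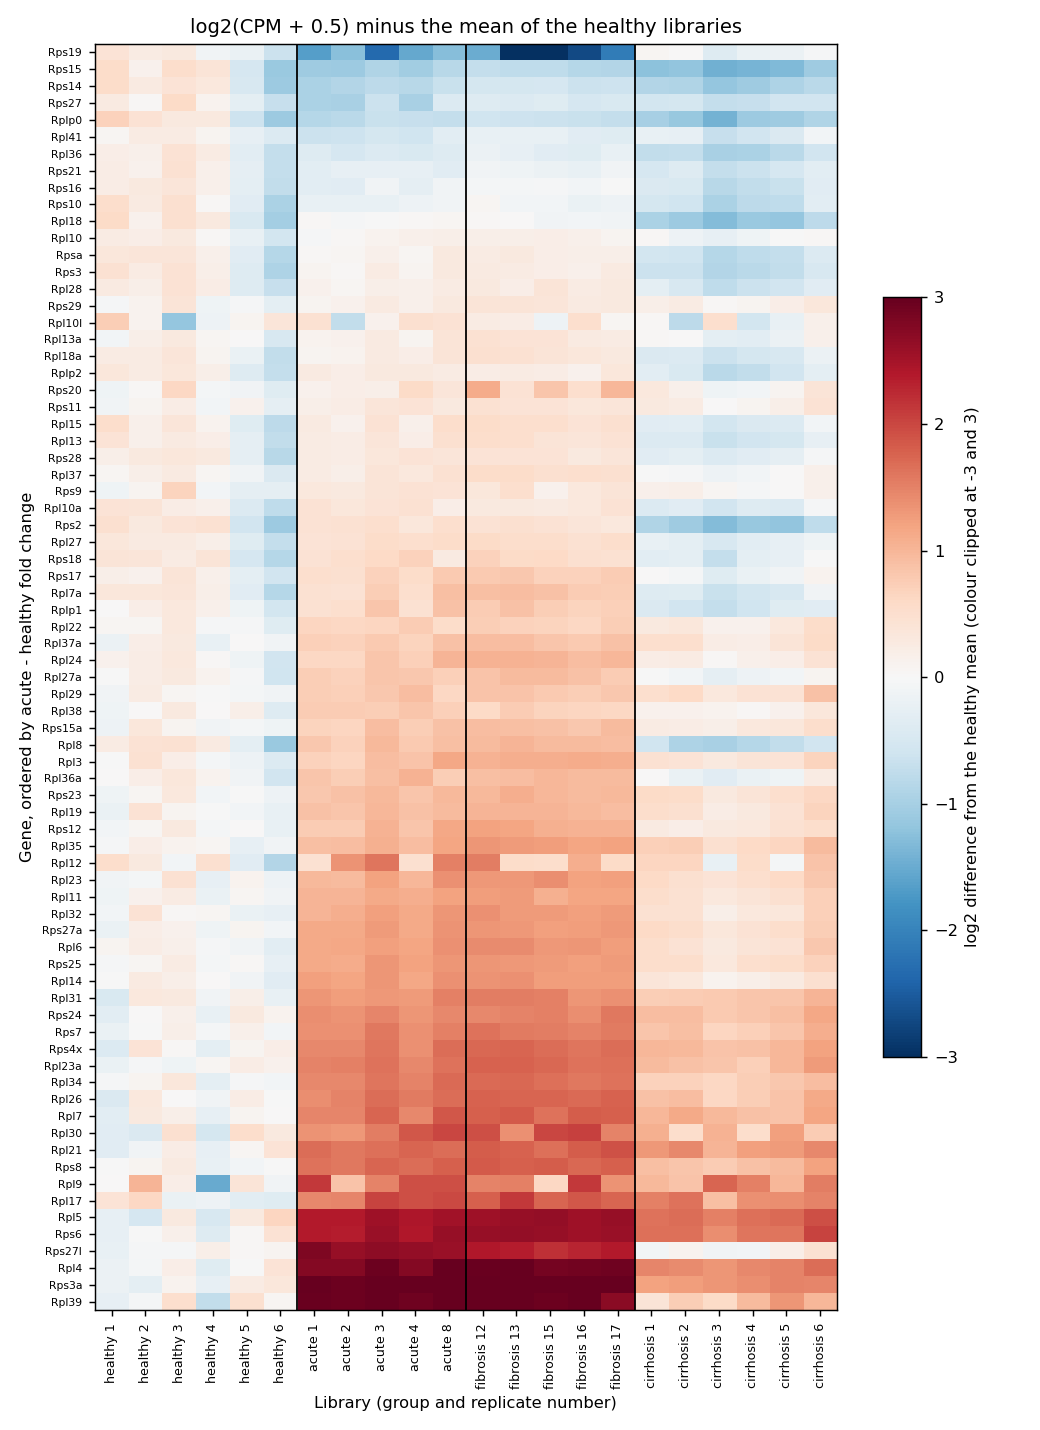
Difference of log2(CPM + 0.5) from the mean of the healthy libraries (colour, clipped at -3 and 3) for the genes shown of those tested at 2 weeks (rows, ordered by their change there) in the 22 CCl4 libraries (columns). The acute and fibrosis columns are red for most rows, and in a smaller block of rows at the top, with Rps15, Rps14 and Rplp0, healthy replicates 1 to 4 are highest.

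Rps3a, a small subunit protein at the platform where mRNA leaves, had the largest rise at 6 weeks. It was at 58.8 to 91.4 CPM in healthy libraries (median 71.0). The 5 acute libraries had 613, 554, 715, 587 and 727 CPM, and the 5 fibrosis libraries 658, 708, 673, 689 and 675 CPM. Cirrhosis libraries had 168 to 204 CPM (median 186). All healthy libraries were below all cirrhosis libraries, and these below all acute and fibrosis libraries. The log2 fold change was 3.17 ± 0.16 (SE, adjusted p = 8.25e-09) at 2 weeks, 3.30 ± 0.14 (adjusted p = 4.76e-09) at 6 weeks and 1.37 ± 0.13 (adjusted p = 4.77e-05) in cirrhosis. From fibrosis to cirrhosis it fell by 1.88 on the log2 scale (adjusted p = 5.15e-10).

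Rpl39, a very small protein in the exit tunnel of the large subunit, had the largest rise at 2 weeks, from few counts. Healthy libraries had 1.28 to 3.68 CPM (median 2.47), acute libraries 22.5, 22.4, 25.4, 21.8 and 24.7 CPM, fibrosis libraries 24.4, 23.6, 22.2, 24.7 and 18.9 CPM, and cirrhosis libraries 3.34 to 6.85 CPM (median 4.81). Acute and fibrosis libraries stood apart from the rest, while the cirrhosis and healthy ranges overlapped. The log2 fold changes against healthy LSECs were 3.28 ± 0.23 (adjusted p = 1.02e-07), 3.27 ± 0.23 (adjusted p = 1.38e-07) and 0.97 ± 0.26 (adjusted p = 0.00756).

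Rpl4 and Rpl5, large subunit proteins of which Rpl4 also lines the exit tunnel, followed Rps3a. Rpl4 had 194 to 335 CPM in healthy libraries (median 244), 1679, 1692, 1928, 1682 and 2069 CPM in acute, 1955, 2027, 1844, 1873 and 1878 CPM in fibrosis, and 631 to 806 CPM in cirrhosis (median 686). Its log2 fold changes were 2.88 ± 0.16 at 2 weeks (adjusted p = 1.80e-08) and 1.48 ± 0.14 in cirrhosis (adjusted p = 4.26e-05), and at 6 weeks it was 8.01-fold higher (adjusted p = 9.35e-09). Rpl5 had 114 to 251 CPM in healthy libraries (median 167), 843, 837, 939, 870 and 924 CPM in acute, 950, 985, 1001, 939 and 993 CPM in fibrosis, and 462 to 620 CPM in cirrhosis (median 515). Neither gene's healthy libraries reached its libraries of any CCl4 group. Of all ribosomal protein genes Rpl5 had the largest difference in cirrhosis, 1.70 ± 0.19 (adjusted p = 8.83e-05).

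Rpl5 and Rpl11 bind the small ribosomal RNA of the large subunit, and outside the ribosome that particle is known to bind Mdm2, the inhibitor of p53. Rpl11 rose by 1.13 ± 0.13 at 2 weeks and 1.26 ± 0.12 at 6 weeks on the log2 scale (adjusted p = 5.13e-06 and 1.33e-06), and its difference in cirrhosis was 0.49 ± 0.12 (adjusted p = 0.00497), under the fold-change threshold. These differences lay below those of Rpl5, though the gap between the 2 genes was not tested. Mdm2 itself rose by 1.37 ± 0.22 and 1.29 ± 0.20 at 2 and 6 weeks (adjusted p = 0.000111 and 8.78e-05) and was not called in cirrhosis.

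Rps6, the small subunit protein phosphorylated by S6 kinase downstream of mTORC1, was at 128 to 227 CPM in healthy libraries (median 169). Acute libraries had 864, 858, 1007, 884 and 1024 CPM, fibrosis libraries 1016, 1034, 1019, 983 and 1008 CPM, and cirrhosis libraries 443 to 687 CPM (median 516). No group overlapped healthy LSECs. The log2 fold changes were 2.50 ± 0.16 (adjusted p = 5.48e-08), 2.67 ± 0.15 (adjusted p = 2.21e-08) and 1.67 ± 0.15 (adjusted p = 3.77e-05).

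The sum for Rps6 covers 2 rows that behaved differently. The row ENSRNOG00000007663 had a median of 2282 expected counts in healthy, 33488 in fibrosis and 10202 in cirrhosis libraries. The row ENSRNOG00000049025 had medians of 2259, 0 and 12537. The reads of near-identical copies are divided between rows by the authors' counting, so how they split in one group is uncertain, and only the sum is used here. In the same way the 2 rows of Rpl7a held identical values in all fibrosis and all cirrhosis libraries.

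Rps27l is the paralog of Rps27, known as a target of p53. It had 18.3 to 24.3 CPM in healthy libraries (median 21.4), 151, 133, 139, 136 and 132 CPM in acute, 115, 111, 99.3, 106 and 113 CPM in fibrosis, and 19.8 to 29.7 CPM in cirrhosis (median 21.6). Acute libraries were highest, fibrosis libraries were all below them, and cirrhosis overlapped healthy LSECs. It rose by 2.72 ± 0.12 at 2 weeks and 2.41 ± 0.11 at 6 weeks on the log2 scale (adjusted p = 3.98e-09 and 7.31e-09), with a difference of 0.09 ± 0.13 in cirrhosis (adjusted p = 0.571). Between 2 and 6 weeks its difference was -0.27 ± 0.06 (adjusted p = 0.0139), under the fold-change threshold.

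Rps27 moved the other way. It had 318 to 769 CPM in healthy libraries (median 543), 267, 261, 332, 262 and 391 CPM in acute, 394, 387, 403, 364 and 376 CPM in fibrosis, and 312 to 360 CPM in cirrhosis (median 348). The healthy libraries overlapped each other group, with replicates 5 and 6 lowest among them. It was lower at 2 weeks, by -0.76 ± 0.22 (adjusted p = 0.00706), and in cirrhosis, by -0.60 ± 0.20 (adjusted p = 0.0187). At 6 weeks it had -0.36 ± 0.20 (adjusted p = 0.113). Within a library, the log2 ratio of Rps27l to Rps27 counts was -4.59 ± 0.51 (SD, n = 6) in healthy LSECs, -1.11 ± 0.30 (n = 5) in acute, -1.83 ± 0.11 (n = 5) in fibrosis and -3.90 ± 0.20 (n = 6) in cirrhosis. In two-sided exact permutation tests it was higher than in healthy LSECs by 3.48 at 2 weeks, 2.77 at 6 weeks and 0.69 in cirrhosis (adjusted p = 0.0100, 0.0100 and 0.0305 over 37 tests of ratios). The raw p of the first pair, 0.00216, is the smallest such a test can give. From 2 to 6 weeks the ratio fell by 0.71 (exact permutation test, adjusted p = 0.0173).

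Other paralog pairs were compared by exact permutation tests in the same family of 37. The ratio of Rps4y2, a relative of Rps4x that the rule did not take, to Rps4x fell by 2.45 at 2 weeks, 3.23 at 6 weeks and 1.92 in cirrhosis (adjusted p = 0.0160, 0.0100 and 0.0100), and Rps4x itself rose by 1.54 ± 0.17, 1.75 ± 0.15 and 0.99 ± 0.15. The ratio of Rpl7l1 to Rpl7 was -0.14 from healthy LSECs at 2 weeks (adjusted p = 0.422) and fell by 0.59 at 6 weeks and 0.98 in cirrhosis (adjusted p = 0.0160 and 0.0100). The ratio of Rpl22l1 to Rpl22 rose by 0.81 at 6 weeks (adjusted p = 0.0313), with 0.70 at 2 weeks (adjusted p = 0.0734). The ratio of Rpl36al to Rpl36a rose by 0.73, 0.68 and 0.78 at the 3 stages (adjusted p = 0.0305, 0.0305 and 0.0173). Rpl10l to Rpl10 did not pass in any CCl4 comparison. In the group labelled TAA control against the group labelled control, the ratio of Rps27l to Rps27 differed by -0.45, that of Rpl10l to Rpl10 by -1.10 and that of Rpl22l1 to Rpl22 by 0.74 (each exact permutation adjusted p = 0.0173).

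**Figure D4:**
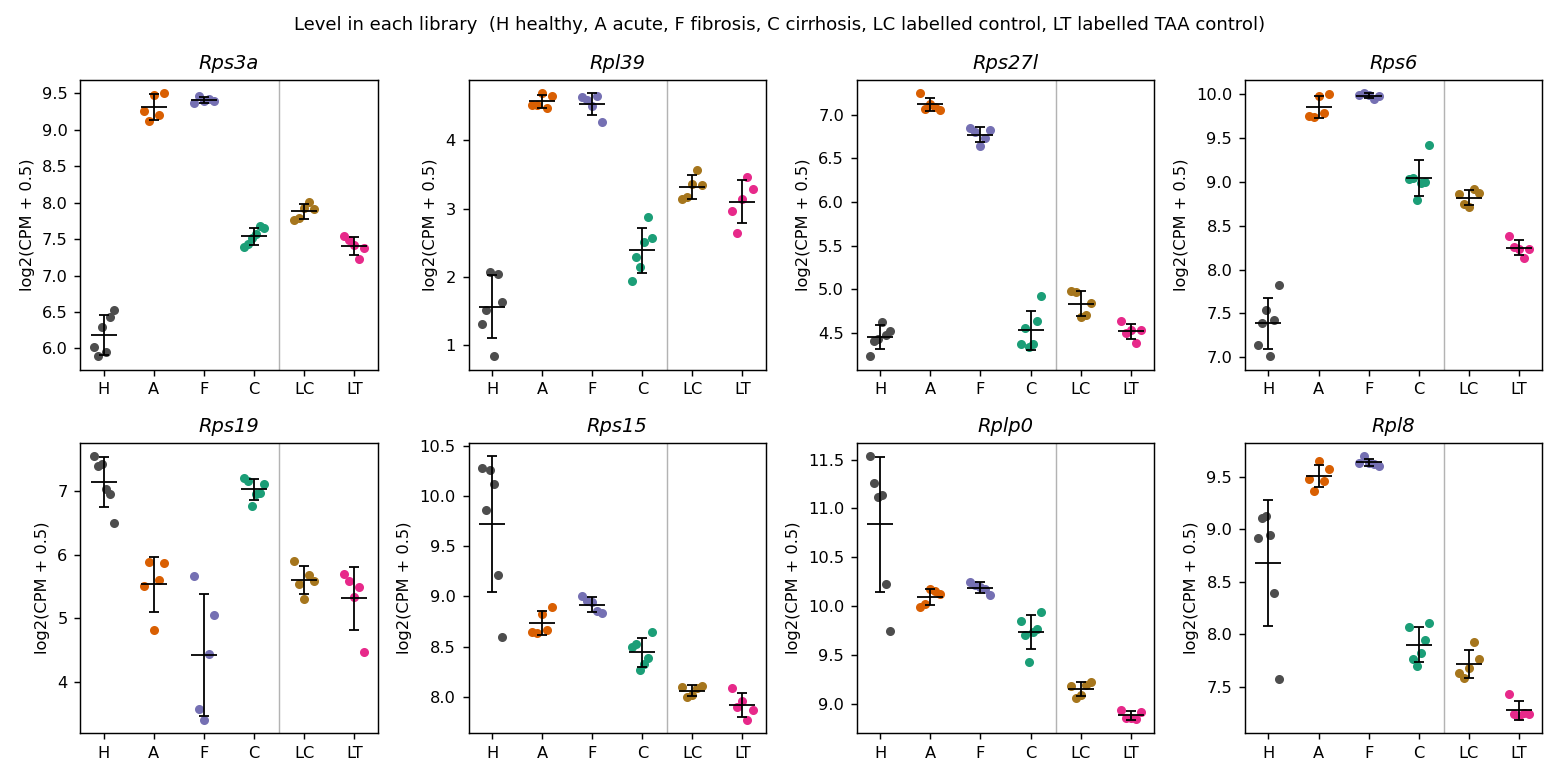
Level of 8 ribosomal protein genes, log2(CPM + 0.5), in each library by group, on axes that differ between genes, with 1 point per library, a dash at the mean and bars of 1 SD. Rps3a, Rpl39, Rps6 and Rps27l are highest at 2 and 6 weeks, Rps19 is lower there than in healthy and cirrhosis libraries, and for Rps15, Rplp0 and Rpl8 the 6 healthy libraries are widely spread, from 856 to 2964 CPM for Rplp0. The TAA experiment (LC and LT) was scaled separately.

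Rps19, a small subunit protein whose loss causes Diamond-Blackfan anaemia in people, had the largest fall. It had 90.1 to 187 CPM in healthy libraries (median 149), 44.7, 58.5, 27.6, 48.0 and 58.0 CPM in acute, 49.9, 11.3, 10.05, 21.1 and 32.8 CPM in fibrosis, and 108 to 147 CPM in cirrhosis (median 132). All acute and fibrosis libraries were below all healthy and cirrhosis libraries, and the latter overlapped. It fell by 1.59 on the log2 scale at 2 weeks (SE 0.24, adjusted p = 6.70e-05) and by 2.68 at 6 weeks (SE 0.38, adjusted p = 4.65e-05). From fibrosis to cirrhosis it was 2.62 ± 0.34 higher (adjusted p = 1.84e-05), against the median of -0.72.

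The fall of Rps19 between 2 and 6 weeks, -1.02 ± 0.39 (unadjusted p = 0.0248, adjusted p = 0.0881), was not stable. The libraries overlapped, and the call was lost without acute replicate 2 or 8 or fibrosis replicate 13 or 15, and with edgeR. Rps20, a protein of the small subunit's head, was the nearest to a call in the other direction, with 81.2, 85.4, 84.1, 111 and 96.2 CPM in acute and 162, 101, 134, 107 and 150 CPM in fibrosis. Its difference was 0.58 ± 0.14 (adjusted p = 0.0198), just under the fold-change threshold.

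The other genes that fell rest on a healthy group that was itself divided. Rps15, a small subunit protein near the decoding site, had 388 to 1239 CPM in healthy libraries (median 1017), and replicates 5 and 6 were lowest at 592 and 388 CPM. Acute libraries had 401, 396, 452, 406 and 475 CPM, fibrosis libraries 514, 494, 493, 463 and 457 CPM, and cirrhosis libraries 308 to 400 CPM (median 347). Healthy replicates 1 to 4 were far above the other groups, replicate 5 was just above them, and replicate 6 lay in the cirrhosis range. Rps15 differed by -0.96 ± 0.28, -0.74 ± 0.28 and -1.27 ± 0.27 (adjusted p = 0.00795, 0.0306 and 0.00190).

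Rps14, another small subunit protein near the mRNA exit, had 365 to 1151 CPM in healthy libraries (median 962), again with replicates 5 and 6 lowest at 565 and 365 CPM. Acute libraries had 408, 426, 455, 438 and 493 CPM, fibrosis libraries 545, 539, 553, 502 and 512 CPM, and cirrhosis libraries 348 to 447 CPM (median 415). The call was lower at 2 weeks (-0.79 ± 0.27, adjusted p = 0.0184) and in cirrhosis (-0.95 ± 0.26, adjusted p = 0.00805), with -0.50 ± 0.27 at 6 weeks (adjusted p = 0.112).

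The stalk of the large subunit, which recruits translation factors, is built on Rplp0 and carries copies of Rplp1 and Rplp2, and its members parted. Rplp0 had 856 to 2964 CPM in healthy libraries (median 2238), with replicates 5 and 6 at 1196 and 856 CPM. Acute libraries had 1015, 1040, 1155, 1137 and 1115 CPM, fibrosis libraries 1217, 1193, 1172, 1154 and 1108 CPM, and cirrhosis libraries 688 to 981 CPM (median 861). Rplp0 differed from healthy LSECs by -0.71 ± 0.29 at 2 weeks (adjusted p = 0.0390), -0.58 ± 0.29 at 6 weeks (adjusted p = 0.0852) and -1.09 ± 0.28 in cirrhosis (adjusted p = 0.00548). The call at 2 weeks was lost without any single one of healthy replicates 1 to 4 or of acute replicates 1 and 2. Rplp1 rose by 0.66 ± 0.17 and 0.81 ± 0.15 at 2 and 6 weeks (adjusted p = 0.00412 and 0.000405) and had -0.50 ± 0.16 in cirrhosis (adjusted p = 0.0183), under the threshold. Rplp2 was called against healthy LSECs at no stage, with 0.29 ± 0.20, 0.30 ± 0.20 and -0.53 ± 0.21.

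Rpl8, a large subunit protein near the catalytic centre, was the gene called in both directions. It had 190 to 560 CPM in healthy libraries (median 488), with replicates 5 and 6 at 337 and 190 CPM, 714, 661, 803, 706 and 764 CPM in acute, 794, 830, 793, 788 and 778 CPM in fibrosis, and 207 to 275 CPM in cirrhosis (median 236). It was 0.86 ± 0.26 and 1.03 ± 0.25 above healthy LSECs at 2 and 6 weeks (adjusted p = 0.00819 and 0.00274) and -0.77 ± 0.25 from them in cirrhosis (adjusted p = 0.0180), where only healthy replicate 6 lay below the cirrhosis median. Rps3 and Rpsa, both of the small subunit and Rpsa also known as the laminin receptor, had -0.69 ± 0.23 and -0.65 ± 0.22 in cirrhosis (adjusted p = 0.0209 and 0.0232) and were not called at 2 or 6 weeks.

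Without healthy replicates 5 and 6, a choice made after seeing the data, 42 genes were higher and 5 lower at 2 weeks, 45 and 5 at 6 weeks, and 19 and 23 in cirrhosis in place of 19 and 11. Without replicate 6 alone 20 were higher and 20 lower in cirrhosis. Rplp0 then had -1.04, -0.99 and -1.55 at the 3 stages with both left out, Rps15 -1.26, -1.13 and -1.71, and Rpl8 0.61, 0.69 and -1.15. The shares of all genes called without these replicates are not given here. The counts alone thus do not set the ribosomal protein genes apart. Replicates 5 and 6 had the highest LSEC marker sums of the healthy libraries, 35397 and 31231 CPM. Their hepatocyte marker sums were the lowest of the group in replicate 5 (1320 CPM) and within the others' range in replicate 6 (23552 CPM). Both were lowest in lymphocyte markers, at 15.5 and 20.9 CPM against 33.9 to 215 in the other healthy libraries. Both were also lowest in neutrophil markers, at 5.50 and 3.59 CPM against 10.8 to 45.1. The macrophage, stellate cell, cholangiocyte and proliferation sums did not separate both replicates from the others. The part of these differences in the low values was not tested.

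Scaling also bears on the genes that fell. When libraries were scaled by their totals alone, 1 gene, Rps19, was still called lower at 2 weeks and at 6 weeks, and 5 in cirrhosis, while 62, 64 and 35 were higher. That scaling moved the median of all genes from -0.09 to 0.32 at 2 weeks. The shares of all genes called under that scaling are not given here, so these counts alone do not set the ribosomal protein genes apart. The TMM factors were 0.712 to 0.939 in healthy libraries and 0.988 to 1.18 in acute ones.

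Rpl10 and Rpl13a were called at no stage. Rpl10, added late to the large subunit, had 0.12 ± 0.17, 0.22 ± 0.16 and -0.07 ± 0.17 at the 3 stages, with 95% confidence intervals of -0.25 to 0.48, -0.12 to 0.56 and -0.43 to 0.28. Rpl13a, which can leave the ribosome to silence inflammatory mRNAs, had 0.23 ± 0.15, 0.42 ± 0.14 and -0.10 ± 0.16. Rpl3, at the catalytic centre, rose by 0.89 ± 0.17 and 1.15 ± 0.15 at 2 and 6 weeks. Rpl22 rose by 0.68 ± 0.13 and 0.77 ± 0.12, Rpl23 by 1.13 and 1.36, and Rpl38, linked to the translation of Hox mRNAs, by 0.80 and 0.73, and none of these 4 was called in cirrhosis.

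On the way from fibrosis to cirrhosis, the largest falls were in Rps27l (-2.26 ± 0.10 on the log2 scale), Rpl39 (4.76-fold) and Rps3a (3.68-fold), with adjusted p = 2.25e-09, 6.17e-08 and 5.15e-10. The 3 genes had also been among the furthest above healthy LSECs at 6 weeks, in a comparison that uses the same fibrosis libraries. Rpl8 came down 3.34-fold and Rplp1 2.39-fold. Besides Rps19, the other gene called higher in cirrhosis was Rpl3l, the paralog of Rpl3 known from heart and skeletal muscle. It had 0.17 to 0.56 CPM against 0.03 to 0.14 CPM in fibrosis (2.04 ± 0.45), a handful of counts per library. Rpl3l passed the low-count filter in this comparison only, by its cirrhosis libraries. The filter thus fixed the direction of its call, which carries no weight among the 2 genes called higher.

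In the TAA experiment, 2 of 76 genes were lower in the group labelled TAA control than in the group labelled control and 0 were higher by limma-voom, or 2.63% and 0%, against 15.9% and 13.5% of the 14369 genes tested. At an unadjusted p under 0.05 without the fold-change threshold 65 were lower (85.5%) and 0 higher, against 26.9% and 29.7% of all genes. With an adjusted p under 0.05 at any fold, 60 were lower (78.9%) and 0 higher, against 23.8% and 25.9% of all genes. The median log2 fold change was -0.32, and 0.03 over all genes. The difference was thus small per gene and in one direction for most of them.

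The 2 called were Rpl10a, a large subunit protein, and Rpl10l, the paralog of Rpl10 known from the testis. Rpl10a had 187, 169, 179, 206 and 195 CPM in the group labelled control and 125, 115, 121, 115 and 121 CPM in the group labelled TAA control, with no overlap. Its log2 fold change was -0.64 ± 0.07 (adjusted p = 4.36e-05). Rpl10l had 8.32, 6.98, 5.26, 6.52 and 5.97 CPM against 4.14, 3.47, 3.33, 1.90 and 1.32 CPM, also without overlap (-1.28 ± 0.27, adjusted p = 0.00251). Rps3a had -0.47 ± 0.08 (adjusted p = 0.000624) and Rps6 -0.57 ± 0.07 (adjusted p = 0.000117), both under the fold-change threshold, and Rps19 had -0.29 ± 0.21 (adjusted p = 0.283). The 10 stellate cell markers summed to 2269 to 5719 CPM in the group labelled control and 422 to 621 CPM in the group labelled TAA control, without overlap. In the same order the 10 hepatocyte markers summed to 2261 to 5602 and 654 to 1474 CPM and the 13 LSEC markers to 24472 to 30857 and 31253 to 40412 CPM, also without overlap. The 11 macrophage markers summed to 24.2 to 169 and 81.7 to 334 CPM, the 10 lymphocyte markers measured to 4.03 to 29.4 and 21.2 to 48.2 CPM, and the 6 proliferation markers to 52.7 to 182 and 39.7 to 71.9 CPM, with overlap. Their part in the difference was not tested.

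Gene groups tied to the ribosome were set beside these genes. Among all genes tested, 35.8% were called higher and 38.3% lower at 2 weeks, and 35.8% and 35.4% at 6 weeks. In cirrhosis against healthy LSECs these shares were 28.8% and 25.7%, and against fibrosis 34.5% and 29.7%. In the TAA experiment they were 13.5% and 15.9%. Ribosome biogenesis factors, which build the subunits in the nucleolus, had the largest median of the lists at 2 and 6 weeks and not in cirrhosis against healthy LSECs, with 36 of 39 higher and 2 lower at 2 weeks (median 2.57), 35 and 2 at 6 weeks (median 2.33), and 13 and 8 in cirrhosis (median 0.13). From fibrosis to cirrhosis 34 were lower and 0 higher (median -2.12). Ncl, a nucleolar RNA-binding protein, rose by 3.30 ± 0.26, 3.14 ± 0.26 and 1.34 ± 0.23 at the 3 stages (adjusted p = 2.84e-07, 4.80e-07 and 0.000509). Fbl, which methylates ribosomal RNA, rose by 2.57 ± 0.19 and 2.33 ± 0.18 and had -0.15 ± 0.19 in cirrhosis (adjusted p = 0.508). In the TAA experiment 3 were higher and 3 lower.

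Other mRNAs with a 5′ TOP, mostly translation factors, were higher in 15 of 19 and lower in 2 at 2 weeks (median 1.06), in 14 and 2 at 6 weeks (median 1.30), and in 10 and 4 in cirrhosis (median 0.72). Pabpc1, the poly(A)-binding protein, rose by 2.65 ± 0.26, 3.14 ± 0.21 and 0.87 ± 0.22. Eef1a1, an elongation factor, rose by 1.13 ± 0.14, 1.28 ± 0.11 and 0.72 ± 0.13. From fibrosis to cirrhosis 12 were lower and 0 higher (median -0.75).

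Of 26 genes tested for mTORC1 and other regulators of these mRNAs, 12 were higher and 6 lower at 2 weeks (median 0.10), 11 and 6 at 6 weeks (median 0.15), and 4 and 10 in cirrhosis (median -0.30). Larp1, which binds the 5′ TOP, rose by 2.85 ± 0.18 and 2.82 ± 0.17 and had 0.49 ± 0.16 in cirrhosis (adjusted p = 0.0222). Eif4ebp1, the translation repressor that mTORC1 inactivates, rose by 2.03 ± 0.20 and 1.89 ± 0.20 and was lower in cirrhosis (-0.95 ± 0.21, adjusted p = 0.00249). Myc, a transcription factor of ribosome genes, rose by 2.47 ± 0.31, 2.64 ± 0.30 and 0.93 ± 0.31. Larp1, Eif4ebp1 and Myc are examples of genes that rose at 2 and 6 weeks. They do not stand for the list, in which 6 of 26 were lower at each of these times. In the group labelled TAA control Myc was lower (-2.37 ± 0.21, adjusted p = 2.05e-05).

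Mitochondrial ribosomal protein genes, which serve the separate ribosome of mitochondria, had more calls higher than lower at 2 and 6 weeks and more lower than higher in cirrhosis. At 2 weeks 33 of 73 were higher and 10 lower (median 0.47), at 6 weeks 24 and 12 (median 0.22), and in cirrhosis 6 and 31 (median -0.38). The share called higher at 6 weeks lay just below the 35.8% of all genes, so those calls do not set this list apart. Of 8 ribosomal proteins and paralogs outside the naming rule, 3 were higher and 3 lower at 2 weeks. Fau, a fusion whose ribosomal part belongs to the small subunit, fell by 2.08 at 2 weeks, 1.89 at 6 weeks and 0.61 in cirrhosis on the log2 scale (adjusted p = 9.42e-06, 2.05e-05 and 0.0297). Rack1, a scaffold on the small subunit, had 0.04 ± 0.26 and 0.12 ± 0.25 at 2 and 6 weeks and was lower in cirrhosis (-0.94 ± 0.25, adjusted p = 0.00632).

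**Figure D5:**
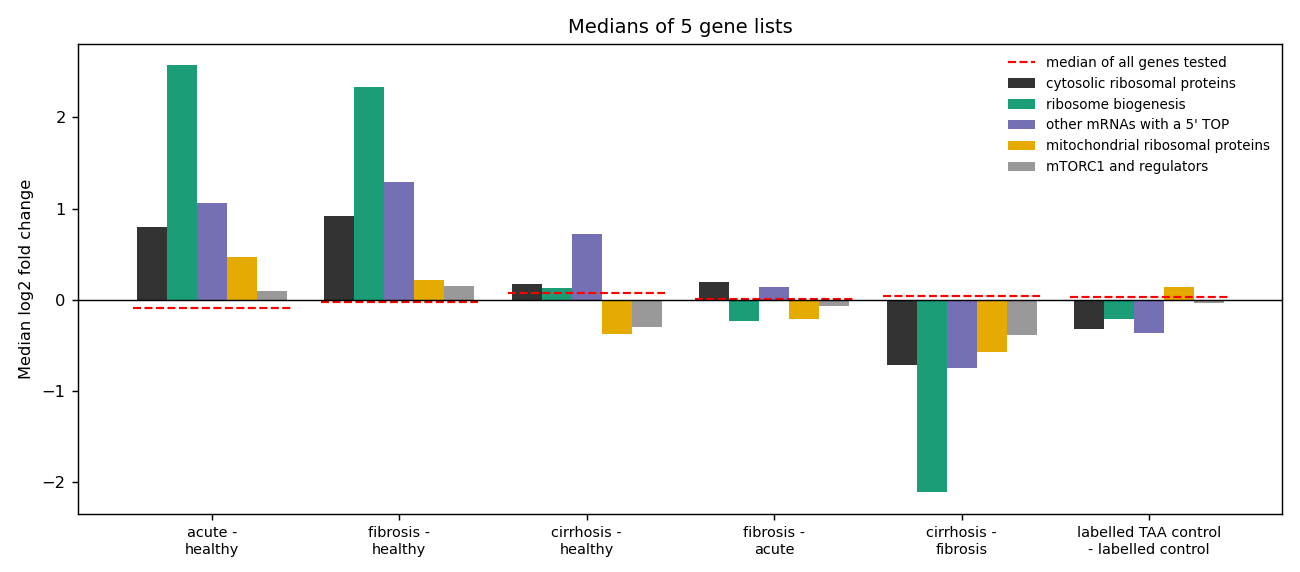
Median log2 fold change (bars, vertical axis) of the ribosomal protein genes and of 4 related gene lists in the 6 comparisons, with a dashed line at the median of all genes tested. Ribosome biogenesis factors lie highest at 2 and 6 weeks, at 2.57 and 2.33, and the ribosomal protein genes lie at 0.79 and 0.92.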

How the data were processed

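For each library the authors deposited expected counts, RSEM's estimates with fractions, for 32623 rows, not normalized. The submitters' processing notes name FastQC, Trim Galore, STAR, RSEM and limma, and the build Rnor_6.0. RSEM divides reads that fit several genes, so the level of a gene that has a close copy is uncertain. Expected counts were rounded, rows of 1 symbol summed, genes filtered with filterByExpr, and each pair of groups fitted with limma-voom on TMM factors, without covariates. CPM used TMM factors over the 22 CCl4 libraries or the 10 TAA libraries, with a pseudocount of 0.5 for log2. Some genes are counted in the totals but not reported singly here. Ribosomal protein genes given with full values were fixed by a list and by the 3 largest and 3 smallest changes in each comparison. Genes called against the direction of the median were added to them. Genes named from the related lists and the markers, such as Ncl, Larp1 and Myc, were not fixed by this rule and are examples. The ribosomal protein genes, lists and tests were chosen with earlier results of these data known. On simulated data with 200 of 14407 genes changed 2-fold, 99.5% were recovered in the right direction. With no gene changed, 68 were called and 0 had an adjusted p under 0.05. The simulation changed far fewer genes than were called at 2 weeks and gave all genes the same dispersion. It therefore does not probe the scaling under wide change or the divided healthy group. R 4.3.3, limma 3.58.1, edgeR 4.0.16, DESeq2 1.42.0, Python 3.11.15, pandas 2.3.3 and matplotlib 3.10.9 were used. Alternatives were edgeR, DESeq2, other scalings and filters, other thresholds, other treatment of several rows, a replicate block and each library left out.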

Additional observations from a re-analysis of the deposited data

Results flagged for a closer look

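In 5 of 216 gene and group combinations of 4 to 6 libraries, 1 library lay further from the others than Dixon's 95% limit allows, where chance gives about 1 in 20, or 10.8. Values are log2 CPM. Rpl10 was 8.79 in labelled control replicate 2, against 8.93 in the nearest library. Rpl38 was 6.99 in cirrhosis replicate 6, against 6.78. In the group labelled TAA control, Rps19 was 4.46 in replicate 15 against 5.34, Rpl12 was 6.19 in replicate 12 against 7.04, and Rpl8 was 7.43 in replicate 10 against 7.25.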

How the results depend on the processing

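No result of a single ribosomal protein gene that was called changed its sign in any of the alternatives tried. Scaling by library totals moved the median of the ribosomal protein genes to 1.21 at 2 weeks, 1.31 at 6 weeks and 0.52 in cirrhosis, where the medians of all genes moved to 0.32, 0.37 and 0.42. It gave 62 higher and 1 lower at 2 weeks, 64 and 1 at 6 weeks, 35 and 5 in cirrhosis, and 2 and 59 for cirrhosis against fibrosis. Upper-quartile factors gave 28 and 7 in cirrhosis. The shares of all genes called under these scalings are not given here. Without the fold-change threshold 54 genes were called in cirrhosis against healthy LSECs, 57 in fibrosis against acute and 65 in the TAA experiment. In fibrosis against acute LSECs, DESeq2 called 2, upper-quartile factors 2, no low-count filter 2 and the adjusted p with the fold-change threshold 0. In the TAA experiment the highest row of each symbol gave 4. Leaving out 1 library gave 0 to 2 calls in fibrosis against acute, 2 to 4 in the TAA experiment (4 without labelled control replicate 2), 47 to 52 at 2 weeks, 49 to 53 at 6 weeks, 28 to 40 in cirrhosis and 46 to 52 in cirrhosis against fibrosis. It gave 3 to 5 paralog ratios at 6 weeks (3 without fibrosis replicate 13). In the 6 comparisons 41 of 49, 46 of 50, 24 of 30, 0 of 1, 44 of 49 and 2 of 2 calls were kept in every alternative. The cause of these differences was not tested.

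Replicate numbers shared by healthy, acute and cirrhosis libraries did not pair them (correlations of deviations from -0.24 to 0.29). With a replicate block, over the shared numbers, 47 genes were called at 2 weeks (40 higher, 7 lower, median 0.71) and 30 in cirrhosis (19 and 11, median 0.17). Libraries 14 and 15 labelled TAA control were the closest pair, with a chi-square per degree of freedom over all genes of 2.96 against at least 23.5 in others, and differed by more than sampling noise. Over the ribosomal protein genes alone the pair had 7.08, and libraries 10 and 13 were closer at 5.50. Counted as 1 they left 2 calls and a median of -0.30. Genes of few counts, such as Rpl3l with 0 to 28 per library, are limited by depth.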

Other observations

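Over the 76 genes tested in both, log2 fold changes of the TAA experiment and of the CCl4 comparisons, which share no library, had a Spearman correlation of -0.39 for acute against healthy, -0.41 for fibrosis against healthy, -0.31 for cirrhosis against healthy, -0.01 for fibrosis against acute and 0.37 for cirrhosis against fibrosis. Over all other genes the values were -0.08, -0.17, -0.29, -0.25 and -0.01. These are across genes, which are not independent replicates, and no test was made. Adding named copies and pseudogenes to the sums left the number of calls at 49, 50, 30, 1, 49 and 2. Rpl35a was at 0 counts throughout, while its copy Rpl35al1 carried counts.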
